A study of Drosophila melanogaster with 66 samples.

Results

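The inducible antimicrobial peptide genes taken here are the attacins AttA, AttB, AttC and AttD, the cecropins CecA1 and CecC, the diptericins DptA and DptB, drosocin (Dro) and metchnikowin (Mtk). They were chosen by gene symbol, and 3 of the 10 had a probe set annotated to them alone, with 1 probe set each. These were AttD (probe set 1631475_at, gene on chromosome arm 3R), DptB (1638235_at, arm 2R) and Mtk (1627613_at, arm 2R), out of 11982 entries with a gene symbol. AttA, AttB, AttC, CecA1, CecC, DptA and Dro were not analysed here, so each statement on members covers AttD, DptB and Mtk. All 3 passed the filter on low levels in both sexes.

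Antimicrobial peptides are small cationic proteins that the fat body secretes into the blood of an infected fly and that surface epithelia make locally. In the Imd pathway, peptidoglycan recognition proteins sense bacterial cell wall fragments and a caspase and kinase relay activates the NF-kB factor Relish (Rel), which switches on diptericins and attacins. The Toll pathway acts through Dorsal and Dif on Drosomycin (Drs) and the Bomanins, and metchnikowin responds to both pathways. AttD is the attacin reported to lack a secretion signal, DptB is a glycine-rich peptide that acts on Gram-negative bacteria, and Mtk is a proline-rich peptide with antifungal and antibacterial activity.

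Total RNA of pools of whole adult flies was hybridised to 66 Affymetrix 3' IVT arrays, 1 array per sample, in 20 groups (10 of each sex). Most groups had 3 arrays, and the groups of F2 males, F3 males and F3 females had 4. The founders (F0 test) were rpr/cyo; dilp3/ser in the w1118 background, where dilp3 is an ilp3-GAL4 driver for the insulin-producing brain cells, rpr is UAS-rpr (the cell-death gene reaper), cyo is the CyO-YFP balancer and ser is the Ser-GFP balancer. The F1 siblings had founder fathers and w1118 mothers and came in 4 genotypes: rpr/+; dilp3/+ with driver and cell-death gene together, rpr/+; ser/+, cyo/+; dilp3/+ and cyo/+; ser/+. The F1 control was w1118, and the labels make it the control of the founders too, whereas the series' design text speaks of a control of the founders' own generation. F2 test flies were offspring of rpr/+; ser/+ males and control females that carried no balancer. F3 test flies came from F2 test males in the same way, and F2 and F3 test flies are labelled w1118 free of constructs. The F2 control and the F3 control were w1118. All flies were raised at 25 °C and no group was infected on purpose as far as the labels say. In RNA of whole flies, more cells that make a peptide and more RNA per cell cannot be told apart.

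Levels are log2 GCRMA values as deposited, so a difference of 1 is a doubling, and the lowest value on every array was 2.2305. Among the 36 arrays of F0 and F1 the median over probe sets lay between 3.2469 and 4.1554, and among the 30 of F2 and F3 between 3.2978 and 4.4961. The number of probe sets at the lowest value was 3447 to 4532 per array in F0 and F1 and 4663 to 5575 in F2 and F3, with no overlap. Ilp2 and Ilp5, hormone genes of the insulin-producing cells, lay at 2.5 to 3.43 and 2.35 to 2.54 on the 12 arrays of flies with both constructs. On the other arrays they lay at 2.23 to 4.62 and 2.33 to 4.28, so at these low whole-fly levels they separated no group and left the ablation unchecked. All 7 male-specific control genes separated the sexes on every array. The male F2 control array numbered 3 stood apart by its yolk and eggshell transcripts. It had Yp2 at 12.69 and Cp36 at 11.33, against at most 3.68 and 3.02 on the other 33 male arrays. The female arrays ran from 10.53 to 14.57 in Yp2 and from 2.77 to 13.97 in Cp36. This male array also held the highest member levels of all F2 arrays. The F2 number test, the correlations between members and the F2 male means are given with and without it. Other results, such as the F2 medians, the F2 same-side counts and the likenesses to other genes, include it. The F2 female arrays numbered 2 stood apart as well. Cp36 was at 8.18 in the test and 2.77 in the control array, against 13.61 to 13.95 on the other F2 female arrays. Yp1 was at 11.14 and 9.2, against 13.7 to 13.86. On F1 female arrays numbered 2, Cp36 was at 9.72 in controls, 8.83 in cyo/+; ser/+ and 8.98 in rpr/+; ser/+. It was at 11.71 in cyo/+; dilp3/+ and 13 in rpr/+; dilp3/+. F1 females numbered 1 and 3 had 12.56 to 13.97. The part of this difference in the members' levels was not tested.

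In all 3 members, the founders and the cyo/+; ser/+ siblings had the highest group means in both sexes, and the F2 and F3 groups lay below all F0 and F1 groups. Over both sexes, AttD ran from 2.23 to 9.1 with a median of 6.37 on F0 and F1 arrays, a median of 3.61 in F2 and a median of 3.09 in F3. The medians of DptB were 10.93, 7.15 and 8.4 in the same order, and those of Mtk were 11.82, 8.98 and 9.89. Rearing set and generation cannot be told apart here, and the count of probe sets at the lowest value, higher on every F2 and F3 array, moves with this difference; its part was not tested. Ordered by group mean within each sex, 53 of the 54 neighbouring pairs over the 3 members differed by less than the larger of their SDs. The exception was Mtk in males, where cyo/+; ser/+ exceeded the next group, cyo/+; dilp3/+, by 0.58.

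The widest spread was inside the groups. Among the 12 F0 and F1 groups, the 3 arrays of a group differed by 0.66 to 6.07 (median 3.42) in AttD, by 1.05 to 5.61 (median 3.4) in DptB and by 0.81 to 3.85 (median 2.21) in Mtk. In females the arrays numbered 1, 2 and 3 read 7.59, 8.63 and 6.45 for AttD in founders, and 4.17, 7.76 and 2.57 in F1 controls. AttD read 4.01, 6.23 and 2.23 in rpr/+; dilp3/+ females and 6.6, 8.96 and 2.89 in rpr/+; ser/+ females. It read 4.58, 8.08 and 2.54 in cyo/+; dilp3/+ females and 7.74, 9.1 and 6.12 in cyo/+; ser/+ females. In each of these 6 female groups the array numbered 2 was the highest and the array numbered 3 the lowest. One of them, rpr/+; dilp3/+ number 3, was at the lowest value of the scale.

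In DptB, too, array 3 was the lowest in each of the 6 female groups. It read 12.59, 12.57 and 10.94 in founder females, and 10.17, 12.18 and 6.56 in F1 control females. DptB read 8.92, 10.36 and 5.98 in rpr/+; dilp3/+ females and 12.14, 12.51 and 8.11 in rpr/+; ser/+ females. It read 10.93, 12.34 and 7.73 in cyo/+; dilp3/+ females and 12.76, 12.79 and 9.85 in cyo/+; ser/+ females. Array 3 of the F1 control females therefore lay below every array of the founder, rpr/+; ser/+, cyo/+; dilp3/+ and cyo/+; ser/+ females. Mtk read 13.43, 12.99 and 12.11 in founder females, and 10.67, 12.49 and 8.64 in F1 control females. It read 10.59, 10.88 and 7.06 in rpr/+; dilp3/+ females and 12.96, 13.1 and 9.98 in rpr/+; ser/+ females. Mtk read 12.07, 12.95 and 9.78 in cyo/+; dilp3/+ females and 13.35, 13.37 and 11.48 in cyo/+; ser/+ females. Array 3 was again the lowest in all 6.

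In males the spread was narrower in founders and F1 controls. AttD read 8.27, 8.92 and 8.76 in founder males, and 5.02, 5.24 and 4.48 in F1 control males. DptB read 12.44, 11.39 and 12.11 in founder males, and 10.203, 9.5 and 8.73 in F1 control males. Mtk read 13.24, 11.72 and 12.58 in founder males, and 10.77, 10.58 and 8.97 in F1 control males. No founder male overlapped an F1 control male in any of the 3. In rpr/+; dilp3/+ males AttD read 5.58, 7.34 and 2.86, DptB 9.76, 11.5 and 7.63, and Mtk 10.58, 11.197 and 8.66. In rpr/+; ser/+ males AttD read 7.48, 7.72 and 3.87, DptB 11.56, 11.46 and 7.42, and Mtk 12.11, 12.34 and 9.78. The array numbered 3 was the lowest for all 3 members in both groups. In cyo/+; dilp3/+ males AttD read 5.59, 7.49 and 5.18, DptB 10.58, 12.17 and 10.13, and Mtk 11.56, 12.32 and 11.32. In cyo/+; ser/+ males AttD read 8.29, 8.57 and 6.3, DptB 12.32, 11.41 and 10.92, and Mtk 12.72, 11.92 and 12.29. Founder males and cyo/+; ser/+ males were the only F0 and F1 groups in which number 3 was not the lowest array for at least 1 member.

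**Figure D1:**
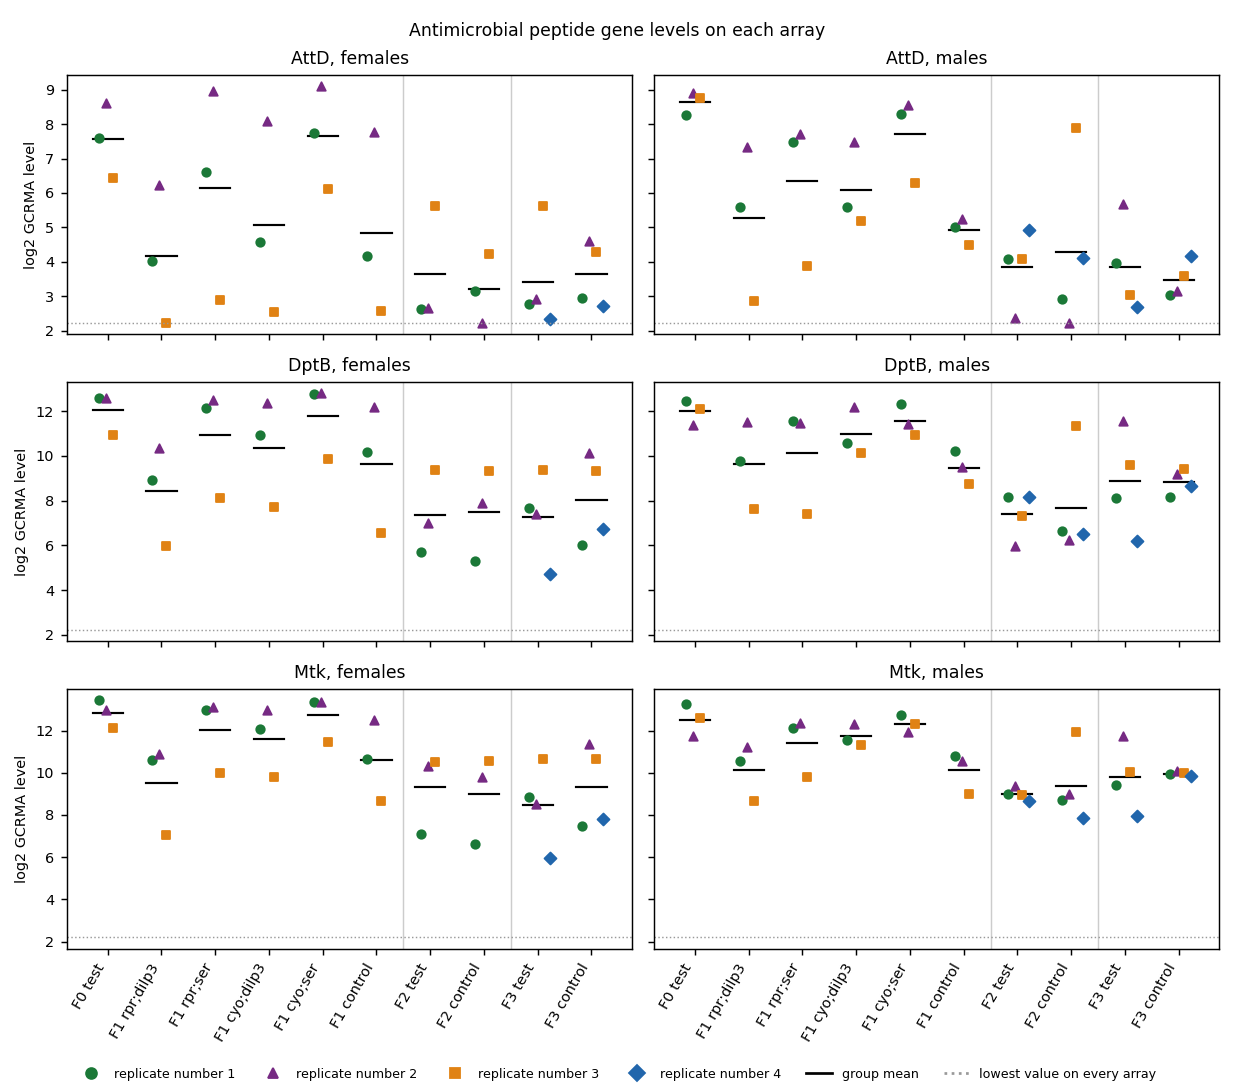
Log2 GCRMA level (y axis) of AttD, DptB and Mtk on each of the 66 arrays, by group (x axis) and sex; colours and shapes give the replicate number, bars the group mean and the dotted line the lowest value on every array. AttD in F1 control females spans 2.57 to 7.76, and the male F2 control array numbered 3 lies at 7.88 for AttD and 11.35 for DptB.

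Arrays of 1 replicate number moved together across the F0 and F1 genotypes, although the labels do not say what a shared number stands for. The rule for choosing the genes already named this co-variation between arrays of a number. Replicate number within rearing set was tested with limma in all 66 arrays, with group and labelled batch as terms. Of the members, 3 of 3 were called (adjusted p = 0.000121 for AttD, 0.000257 for DptB and 0.000751 for Mtk), against 43.3% of all 13281 entries tested. Within F0 and F1 the count was 3 of 3 (adjusted p = 0.000162, 0.000342 and 0.0018), against 31.6%. A shared number was thus common in these arrays and is not particular to the peptide genes. Number accounted for 73.7% of the sum of squares within F0 and F1 groups in AttD, 68.9% in DptB and 64.9% in Mtk, and the median of all entries was 20.1%.

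The F0 and F1 arrays numbered 3 were the low ones. Their mean deviation from the group mean was -1.68 in AttD, -1.73 in DptB and -1.24 in Mtk. Those numbered 2 deviated by 1.64, 1.11 and 0.69, and those numbered 1 by 0.04, 0.62 and 0.54. Array 3 was the lowest of its group in 11, 11 and 10 of 12 groups, and array 2 the highest in 12, 7 and 8. In the fit, number 3 was lower than number 1 by a log2 change of -1.62 ± 0.45 in AttD (SE, adjusted p = 0.0121), -2.41 ± 0.52 in DptB (0.00141) and -1.77 ± 0.43 in Mtk (0.00376), 3 of 3 called against 17.7% of entries. Number 3 against number 2 gave -2.92 ± 0.51, -2.75 ± 0.58 and -1.92 ± 0.48 (adjusted p = 8.58e-05, 0.000725 and 0.00376), 3 of 3 called against 23.3%. Number 2 against number 1 gave 1.3 ± 0.49, 0.35 ± 0.56 and 0.15 ± 0.46 (adjusted p = 0.0799, 0.74 and 0.874), 0 of 3 called against 11.4%. With the arrays numbered 3 left out, AttD kept its call (adjusted p = 0.0468), while DptB (0.701) and Mtk (0.837) were not called. The 12 arrays numbered 3 included 6 from batch 2, whereas 4 of the 12 numbered 2 came from batch 4, which held none numbered 1 or 3 in this set.

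In F0 and F1, a male and a female array of the same genotype and number lay on the same side of their group means in 14 of 18 pairs for each of the 3 members. In F2 they did so in 5, 3 and 3 of 6 pairs for AttD, DptB and Mtk, and in F3 in 3, 7 and 7 of 8. With female arrays alone, 3 of 3 members were called for number within F0 and F1, against 40.4% of entries. With male arrays alone, 0 of 3 were called (adjusted p = 0.0692, 0.108 and 0.114), against 28.9%. The difference between the sexes in the effect of number was not tested.

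**Figure D2:**
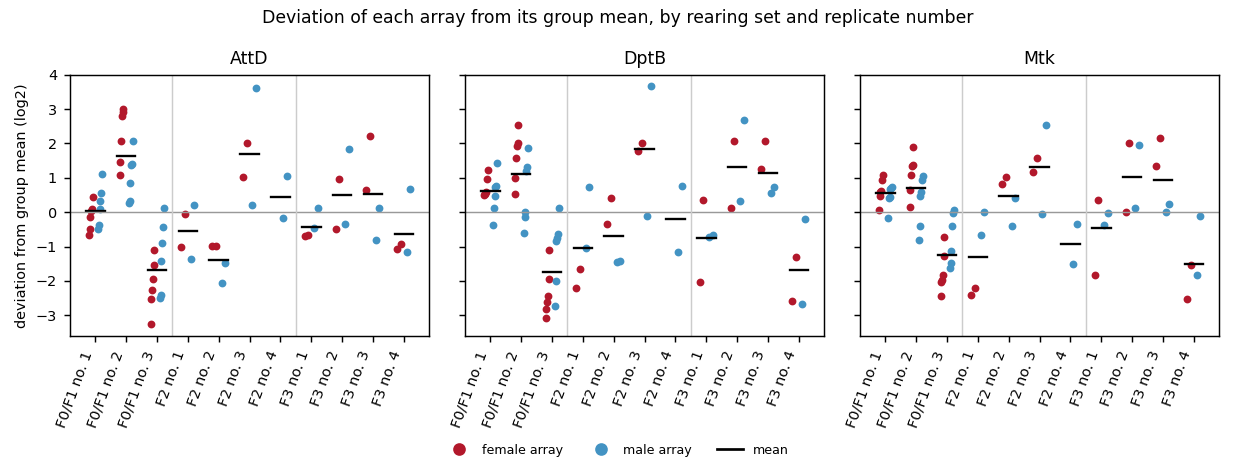
Deviation of each array from its group mean (log2, y axis) for AttD, DptB and Mtk, by rearing set and replicate number (x axis); red points are female arrays, blue points male arrays and bars means. In F0 and F1 the arrays numbered 3 average -1.68, -1.73 and -1.24.

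In F2 and F3 the numbers sorted differently. In F2 the arrays numbered 3 were the high ones, with mean deviations of 1.71 in AttD, 1.84 in DptB and 1.32 in Mtk. Without the male F2 control array numbered 3 they were 1.08, 1.23 and 0.9. The 2 arrays numbered 4 then deviated by 1.04, 0.41 and -0.51 on average, so in AttD they were as high as number 3. Those numbered 2 deviated by -1.07, -0.39 and 0.67. Number was called in 3 of 3 members (adjusted p = 0.00774, 0.0312 and 0.0261), against 34.8% of entries. This rested on the male F2 control array numbered 3, and with all F2 arrays numbered 2 left out 1 of 3 was called. Without it 0 of 3 were called (adjusted p = 0.0585 for AttD, 0.246 for DptB and 0.0915 for Mtk), against 30% of entries. With only the F2 female arrays numbered 2 left out, 3 of 3 were called (adjusted p = 0.0276, 0.0264 and 0.0297), against 15.3%. On the 4 F2 arrays numbered 2 the fat body genes Fbp1 and Fbp2 deviated by 3.79 and 3.51 on average, while AttD deviated by -1.37; the part of these genes was not tested. In F3 the number was called in 0 of 3 (adjusted p = 1, 0.378 and 0.378), against 0.264%. The F3 arrays numbered 4 had mean deviations of -1.7 in DptB and -1.5 in Mtk.

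The members followed each other closely from array to array. Over the 66 arrays, deviations from the group mean correlated at r = 0.932 between DptB and Mtk, 0.8721 between AttD and DptB and 0.7434 between AttD and Mtk. Without the male F2 control array numbered 3 the values were 0.9254, 0.8547 and 0.7147 over 65 arrays. These are descriptions, since the arrays share groups, batches and numbers.

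Founders were compared with the F1 control to ask how flies with both constructs and both balancers differ from w1118. In females AttD averaged 7.56 ± 1.09 in founders and 4.84 ± 2.66 in F1 controls (SD, n = 3 each). The fitted change with the batch term was 3.72 ± 1.06 (SE, 95% interval 1.51 to 5.93), and limma's adjusted p was 0.138. DptB averaged 12.03 ± 0.95 in founders and 9.64 ± 2.85 in F1 controls, with a change of 3.52 ± 1.31 (adjusted p = 0.331). Mtk averaged 12.84 ± 0.67 in founders and 10.6 ± 1.92 in F1 controls, with a change of 2.91 ± 1.24 (adjusted p = 0.464). Thus 0 of 3 members were called, against 0.828% of the 12809 entries tested. An unadjusted p under 0.05 was found in 3 of 3 members and in 1153 of the 12809 entries.

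The same-numbered founder and control females deviated together over all genes (r = 0.27 to 0.51), so number was also fitted as a block. AttD then rose by 3.07 ± 0.6 (adjusted p = 0.0108) and DptB by 3.1 ± 0.76 (adjusted p = 0.0366), while Mtk had 2.6 ± 0.68 (adjusted p = 0.0517). That is 2 of 3 members, against 3.26% of entries called and 1.9% called higher. Founder females exceeded the control female of their number in all 3 pairs for each member. Without the block, leaving out the F1 control female numbered 2 gave 1 member called (AttD, adjusted p = 0.0302), and leaving out any other array of these groups gave 0. The summed level of the fat body markers was 14.23 to 14.35 in founder females and 14.36 to 14.95 in F1 control females. That of the gut markers was 14.27 to 15 in founder females and 14.36 to 15.25 in F1 control females. Without the block 1 of 5 fat body genes was called lower, and 0 of 5 had a positive change (median -0.94, all entries 0). Of the gut genes 3 of 11 had a positive change (median -0.88) and 0 of 11 were called. With the block 1 of 5 and 1 of 11 were called lower (medians -0.07 and -0.98). The part of either list in the result was not tested.

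In males the founders and controls did not overlap, but 0 of 3 members were called without the block, against 3.43% of the 11357 entries. AttD averaged 8.65 ± 0.34 in founder males and 4.91 ± 0.39 in F1 control males (n = 3 each), a 13.3-fold difference of geometric means. Its fitted change was 3.29 ± 1.17 (adjusted p = 0.141). DptB averaged 11.98 ± 0.54 in founder males and 9.48 ± 0.74 in F1 control males (5.67-fold, change 2.05 ± 1.25, adjusted p = 0.5). Mtk averaged 12.52 ± 0.76 in founder males and 10.11 ± 0.99 in F1 control males (5.31-fold, change 2.08 ± 0.89, adjusted p = 0.256). In all 3 members the founders lay wholly above the control, as in 7.15% of entries. The summed level of the fat body markers was 14.67 to 15.14 in founder males and 15.2 to 15.44 in F1 control males, with 0 of 5 genes called. Of the gut markers 4 of 11 fell and 1 of 11 had a positive change (median -1.07, all entries -0.03), and their summed level was 14.83 to 15.18 in founder males and 15.08 to 15.46 in F1 control males. The part of either list in the result was not tested.

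Among the F1 siblings, cyo/+; ser/+ flies, which carry both balancers and neither construct, came nearest to the founders. In females AttD averaged 7.66 ± 1.49 in cyo/+; ser/+ and 4.84 ± 2.66 in F1 controls. Without the block the changes were 3.04 ± 1.03 in AttD, 2.33 ± 1.27 in DptB and 2.08 ± 1.2 in Mtk (adjusted p = 0.418, 0.815 and 0.846), so 0 of 3 were called, against 0.18% of entries. With number as a block AttD rose by 3.44 ± 0.56 (adjusted p = 0.00464), DptB by 2.9 ± 0.7 (0.0306) and Mtk by 2.75 ± 0.63 (0.0252). These were 3 of 3 called, against 4.93% of entries called and 2.88% called higher. In males AttD averaged 7.72 ± 1.24 in cyo/+; ser/+ and 4.91 ± 0.39 in F1 controls, DptB 11.55 ± 0.71 and 9.48 ± 0.74, and Mtk 12.31 ± 0.4 and 10.11 ± 0.99. All 3 lay wholly above the control, as did 6.32% of entries, and 0 of 3 were called (adjusted p = 0.352, 0.61 and 0.403), against 0.396%. With number as a block 0 of 3 were called in these males too (median change 2.24), against 470 of the 11357 entries. Gut markers had a positive change in 0 of 11 in cyo/+; ser/+ females (median -0.62, or -0.99 with the block) and in 1 of 11 in cyo/+; ser/+ males (median -1.06). None was called without the block, and with it 0 of 11 fell in females and 6 of 11 in males (median -1.17). Of all entries, 263 of 12809 in females and 288 of 11357 in males were called lower with the block. Their part in the result was not tested.

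The rpr/+; dilp3/+ siblings, the only F1 flies with driver and cell-death gene together, had no called member. In females the fitted changes were 0.1 ± 1.02 in AttD (95% interval -2.01 to 2.22), -0.25 ± 1.25 in DptB (-2.85 to 2.35) and -0.37 ± 1.19 in Mtk (-2.84 to 2.1). Adjusted p was 1 for each, and 0 of 3 were called, against 0.117%. Each rpr/+; dilp3/+ female lay below the control female of its number in all 3 members. With number as a block 0 of 3 had a positive change in females (AttD -0.95, median of the members -1.24, median of all entries 0). Again 0 of 3 were called, against 27 of the 12809 entries. Without the block the changes in males were -0.1 ± 1.17, -0.3 ± 1.25 and -0.29 ± 0.89 (adjusted p = 0.999 each), 0 of 3 called against 0.22%. These intervals are wide and do not show that the levels were alike.

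For rpr/+; ser/+ and cyo/+; dilp3/+ females the sign of the fitted change depended on the terms in the fit. Their arrays lie in batches 3 and 4 and the F1 control females in batches 1 and 2, so no batch holds both. The plain difference of means for AttD, DptB and Mtk was 1.31, 1.28 and 1.42 in rpr/+; ser/+ and 0.23, 0.7 and 1 in cyo/+; dilp3/+. With the batch term it was -0.26, -0.09 and -0.09 in rpr/+; ser/+ and -1.34, -0.68 and -0.5 in cyo/+; dilp3/+. With number as a block as well it was 3.44, 3.76 and 3.92 in rpr/+; ser/+ and 2.35, 3.17 and 3.51 in cyo/+; dilp3/+. Members called were 0 of 3 in either genotype, against 8.55% and 20.4% of entries, and also 0 of 3 with the block, against 4.36% and 0.664%. In males the changes were 1.44, 0.67 and 1.3 in rpr/+; ser/+ and 1.18, 1.48 and 1.63 in cyo/+; dilp3/+, with 0 of 3 called in each, against 0.484% and 0.282%. Mtk in cyo/+; dilp3/+ males lay wholly above the control (11.73 ± 0.52 against 10.11 ± 0.99), as did 3.39% of entries.

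**Figure D3:**
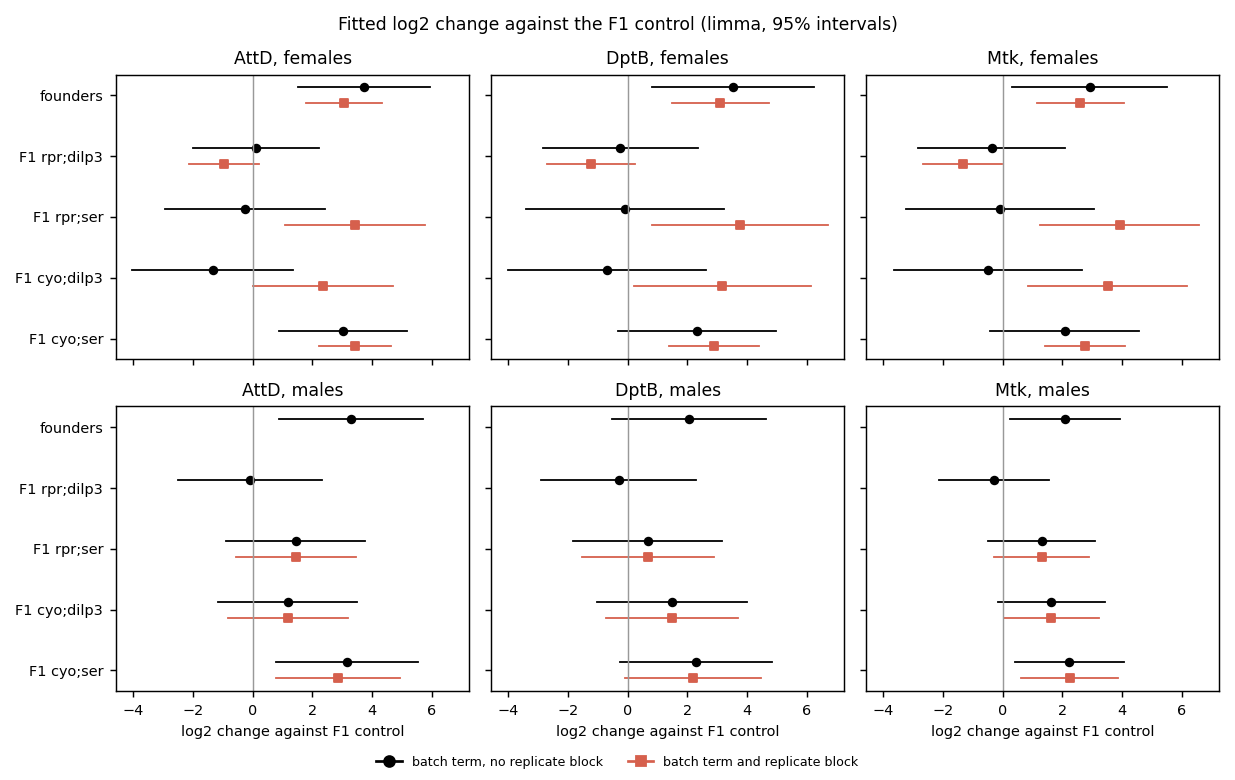
Fitted log2 change against the F1 control of the same sex (x axis, 95% intervals) for AttD, DptB and Mtk in founders and the 4 F1 sibling genotypes; black circles are from the fit with the batch term and red squares from the fit that adds the replicate block, drawn where same-numbered arrays paired. In rpr/+; ser/+ females AttD lies at -0.26 without the block and 3.44 with it.

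The siblings allow each chromosome to be contrasted over the other, 6 arrays against 6 in each sex. These contrasts were chosen after the values were seen. In each pair below, the flies share sex, number and the other chromosome. In no pair did the arrays share a labelled batch, so each pair difference also spans batches. AttD was higher in the ser sibling than in the dilp3 sibling in 12 of 12 pairs, by 0.39 to 3.58 (median 1.505). DptB was higher in 9 of 12 pairs (-0.76 to 3.23) and Mtk in 11 of 12 (-0.4 to 2.93), and the pairs that went the other way were male. AttD was higher in the rpr sibling than in the cyo sibling in 0 of 12 pairs (-3.23 to -0.01), and DptB and Mtk in 1 of 12 each, so rpr siblings were mostly the lower. Both contrasts use the same arrays, and the share of all entries with pairs as one-sided was not counted, so these pair counts are descriptions.

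AttD averaged 6.9 ± 2.31 in ser females and 4.61 ± 2.23 in dilp3 females (n = 6 each). Without the block the changes were 2.01 ± 0.72 in AttD, 1.58 ± 0.89 in DptB and 1.43 ± 0.84 in Mtk (adjusted p = 0.454, 0.684 and 0.703), 0 of 3 called against 0.187%. With number as a block AttD was higher in ser females by 2.74 ± 0.39 (adjusted p = 0.0013), DptB by 2.37 ± 0.49 (0.00907) and Mtk by 2.25 ± 0.44 (0.00694). That is 3 of 3, against 15.3% of entries called and 5.09% called higher. In males the changes were 1.76 ± 0.82, 0.89 ± 0.88 and 1.1 ± 0.63 (adjusted p = 0.339, 0.699 and 0.437), 0 of 3 called against 0.933%. The contrast of rpr with cyo siblings gave -0.93 ± 0.72, -0.99 ± 0.89 and -1.01 ± 0.84 in females and -1.49 ± 0.82, -1.7 ± 0.88 and -1.42 ± 0.63 in males, with 0 of 3 called in each sex, against 0.234% and 0.229%. With the block the female values were -1.65, -1.78 and -1.84 (adjusted p = 0.0785, 0.149 and 0.0837). Within the batches that held at least 2 arrays of each side, ser minus dilp3 was 2.64, 1.68 and 1.18 in females (batch 3) and 1.53, 0.44 and 0.52 in males (batch 1), with 3 ser and 2 dilp3 arrays in each. In the same batches rpr minus cyo was -0.66, -0.36 and -0.27 in females and -2.62, -2.69 and -1.81 in males (2 rpr and 3 cyo arrays each). These within-batch differences have the signs of the fitted ones, and they mix numbers and genotypes. No member had a called difference between the sexes in any of these comparisons.

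**Figure D4:**
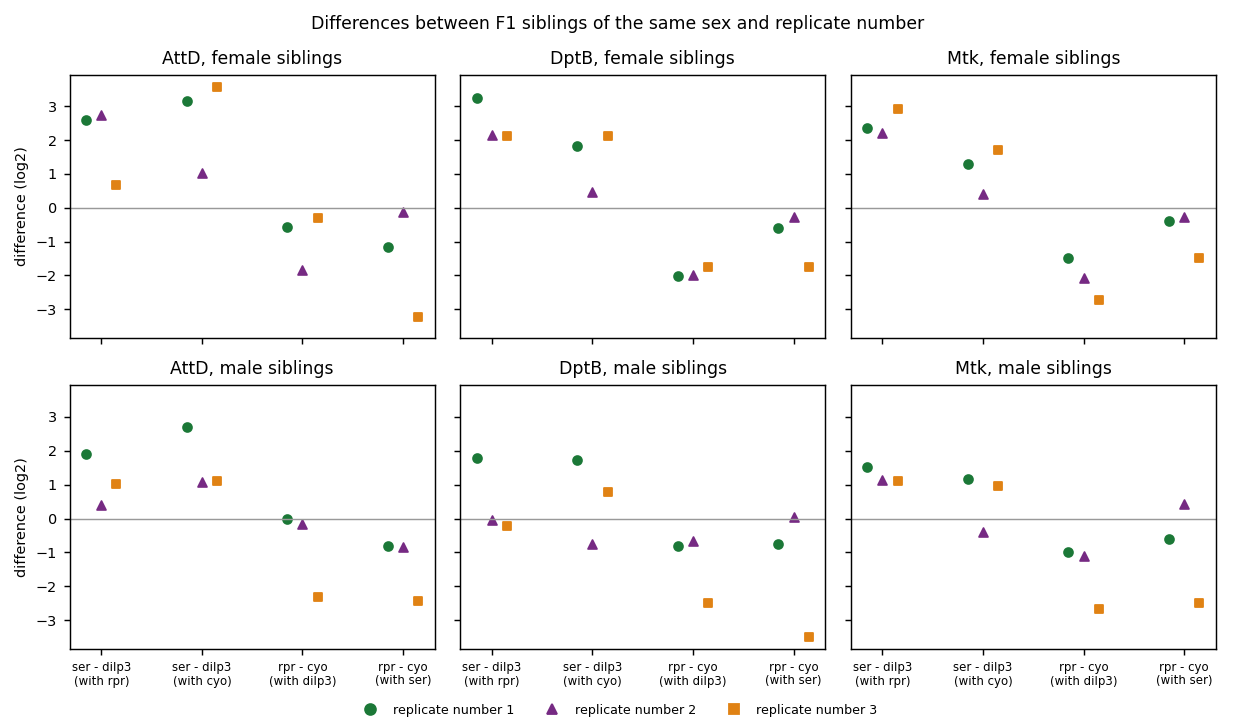
Difference (log2, y axis) between F1 siblings of the same sex and replicate number for AttD, DptB and Mtk, ser minus dilp3 and rpr minus cyo (x axis, with the chromosome held equal in brackets); colours and shapes give the number. For AttD every ser minus dilp3 point lies above 0, between 0.39 and 3.58.

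F2 and F3 test flies, compared with their own controls to ask what descent from the founders leaves, showed no called member. AttD read 2.62, 2.65 and 5.63 in F2 test females, and 3.15, 2.23 and 4.22 in F2 control females. DptB read 5.68, 7.01 and 9.35 in F2 test females, and 5.3, 7.91 and 9.3 in F2 control females. Mtk read 7.12, 10.33 and 10.49 in F2 test females, and 6.6, 9.81 and 10.58 in F2 control females. The groups overlap, and the widest gap between test and control of a number was in AttD on number 3 (5.63 and 4.22). The changes were 0.43 ± 1 in AttD, -0.16 ± 1.23 in DptB and 0.32 ± 1.17 in Mtk (adjusted p = 1 each), 0 of 3 called against 0% of entries, and 20 entries had an unadjusted p under 0.05.

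In F2 males AttD read 4.08, 2.38, 4.07 and 4.92 in test flies, and 2.92, 2.23, 7.88 and 4.11 in control flies. DptB read 8.14, 5.99, 7.29 and 8.17 in test males, and 6.64, 6.24, 11.35 and 6.52 in control males. Mtk read 9, 9.39, 8.94 and 8.65 in test males, and 8.71, 8.97, 11.92 and 7.85 in control males. Control array 3 lay above every test array in each of the 3. With it the changes were -0.42 ± 0.98, -0.29 ± 1.05 and -0.36 ± 0.75 (adjusted p = 1 each), 0 of 3 called against 0%, with 97 entries under an unadjusted 0.05. Without it the test means lay above the control means in all 3. They were 3.86 ± 1.07 and 3.09 ± 0.95 in AttD, 7.4 ± 1.03 and 6.46 ± 0.2 in DptB, and 9 ± 0.31 and 8.51 ± 0.59 in Mtk (n = 4 test and 3 control).

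In F3 females AttD read 2.76, 2.92, 5.62 and 2.33 in test flies, and 2.94, 4.61, 4.29 and 2.71 in control flies. DptB read 7.65, 7.42, 9.37 and 4.7 in test females, and 6.02, 10.12, 9.31 and 6.73 in control females. Mtk read 8.85, 8.5, 10.65 and 5.95 in test females, and 7.49, 11.34, 10.66 and 7.79 in control females. The groups overlap in all 3, and the changes were -0.23 ± 0.86, -0.76 ± 1.06 and -0.83 ± 1.01. In F3 males AttD read 3.96, 5.69, 3.02 and 2.68 in test flies, and 3.03, 3.15, 3.59 and 4.17 in control flies. DptB read 8.12, 11.54, 9.57 and 6.18 in test males, and 8.17, 9.17, 9.4 and 8.63 in control males. Mtk read 9.43, 11.76, 10.05 and 7.97 in test males, and 9.93, 10.06, 9.97 and 9.85 in control males. Test males therefore spread wider on both sides of their controls (SD 1.57 in test and 0.09 in control males for Mtk), with changes of 0.35 ± 0.98, 0.01 ± 1.05 and -0.15 ± 0.75. In each sex of F3, 0 of 3 members were called (adjusted p = 1 each), against 0% of entries, with 27 entries in females and 54 in males under an unadjusted 0.05. Within batches that held 2 arrays of each side, the test minus control differences were 0.44, 0.22 and 0.21 in F2 females, 0.99, 1.58 and 0.54 in F2 males without control array 3, and 0.18, 0.06 and -0.21 in F3 males. In F3 females they were -0.18, -1.32 and -1.43 in batch 1 and -0.28, -0.2 and -0.24 in batch 2.

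Male and female flies did not differ by a called amount in any member. Averaged over the groups, the male minus female difference was 0.44 ± 0.38 in AttD, 0.28 ± 0.42 in DptB and 0.09 ± 0.34 in Mtk (adjusted p = 0.282, 0.534 and 0.8), 0 of 3 called against 80.2% of entries. Of other inducible genes some differed, as did most entries, and some did not. Defensin (Def) was lower in males (difference -0.91 ± 0.29, adjusted p = 0.00438), and Listericin, an antibacterial peptide gene, was higher in males (1.3 ± 0.27, adjusted p = 2.99e-05). The inducible genes edin (-0.44 ± 0.47, adjusted p = 0.378) and PGRP-SB1 (0.51 ± 0.25, adjusted p = 0.0534) were not called.

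Genes around the members were described from lists of the Imd relay, its negative regulators, the Toll pathway and other inducible peptides. In the number test within F0 and F1, 14 of the 16 other inducible genes tested were called, against 31.6% of entries. Def deviated by 0.23, 1 and -1.22 on arrays numbered 1, 2 and 3 (adjusted p = 0.00196), Listericin by 0.11, 0.92 and -1.03 (adjusted p = 1.48e-05), and PGRP-SB1, a secreted recognition protein that cleaves peptidoglycan, by 0.48, 0.41 and -0.89 (adjusted p = 0.00078). They share the low number 3 of the members. Genes named from the lists, here and below, were mostly picked by the smallest p in the number test over all rearing sets. Their own p values in the number test are therefore descriptions. CecB, a cecropin named after its values were seen, was not called (adjusted p = 0.12).

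In the Imd relay 5 of 11 genes were called (45.5%), against 31.6% of all entries. Rel, the factor that acts on the members' promoters, deviated by -0.06, 0.55 and -0.48 (adjusted p = 2.65e-07), a smaller spread than theirs. Dredd, the caspase of the relay, deviated by 0.18, 0.1 and -0.29 (adjusted p = 0.000768). Among the negative regulators 5 of 8 were called (62.5%). Of these, pirk (adjusted p = 0.00478), PGRP-LB (4.94e-05) and PGRP-LF (2.35e-05) were lowest on number 3 with -0.67, -0.72 and -0.9. PGRP-SC2, an amidase that degrades peptidoglycan, deviated by -0.16, -0.16 and 0.32 and was not called (adjusted p = 0.103). In the Toll list 2 of 13 were called (15.4%), below the share of all entries. They were the protease gene Hayan with 0.24, 0.55 and -0.79 (adjusted p = 0.00133) and the recognition gene GNBP3 with 0.24, 0.08 and -0.32 (adjusted p = 0.0347). Of the JAK-STAT list 2 of 6 were called (33.3%), near the share of all entries. Among them was the stress peptide gene TotC with -0.48, 1.28 and -0.8 (adjusted p = 0.00166).

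Markers of tissues moved with number as well. Of 11 gut genes tested 8 were called within F0 and F1 (72.7%), against 31.6% of all entries. The midgut proteases Jon65Ai (-0.44, -1.15 and 1.59) and Jon99Ci (-0.83, -1.3 and 2.13) were high on number 3, where the members were low. The summed gut level ran from 14.11 to 15.41, 14.1 to 15.46 and 14.65 to 15.5 on numbers 1, 2 and 3. Of the fat body genes 1 of 5 was called (20%), below the share of all entries. It was Lsp2 with 0.66, -1.59 and 0.93, and the summed fat body level ran from 14.35 to 15.44, 14.23 to 15.2 and 14.25 to 15.34. Of the hemocyte genes 5 of 8 were called (62.5%), and they sorted differently. Hml deviated by 0.36, 0.04 and -0.41, Ppn by -0.29, 0.51 and -0.23, and vkg by -0.27, 0.38 and -0.11. The summed hemocyte level ran from 10.12 to 11.95, 11.18 to 12.15 and 10.6 to 11.72. Fbp1, a fat body gene, was at the lowest value on 47 of the 66 arrays. Their part in the members' levels was not tested.

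In the comparisons, with number as a block, 11 of 16 other inducible genes rose in cyo/+; ser/+ females (median change 1.32, median of all entries -0.03), against 2.88% of entries called higher. In founder females 3 of 16 rose (median 0.89, all entries -0.02), against 1.9% called higher. PGRP-SB1 rose by 2.43 ± 0.35 (adjusted p = 0.00154) and Def by 2.52 ± 0.51 (adjusted p = 0.013) in founder females. Rel rose by 0.55 ± 0.13 in founder females (adjusted p = 0.0356) and by 0.61 ± 0.12 in cyo/+; ser/+ females (adjusted p = 0.0138). In ser against dilp3 females 14 of 16 rose (median 1.34), against 5.09% called higher. In the same contrast 4 of 11 gut genes fell, against 15.3% called in either direction, with Jon99Ci at -3.8 ± 0.67 (adjusted p = 0.00448). Without the block 0 of 16 were called in each of these 3 comparisons. Drs, the Toll-responsive peptide gene, averaged 13.67 ± 0.22 in founder females and 12.83 ± 0.86 in F1 control females, and its blocked change was 0.85 ± 0.24 (adjusted p = 0.0718). It rose by 0.93 ± 0.22 in cyo/+; ser/+ females with the block (adjusted p = 0.0289).

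**Figure D5:**
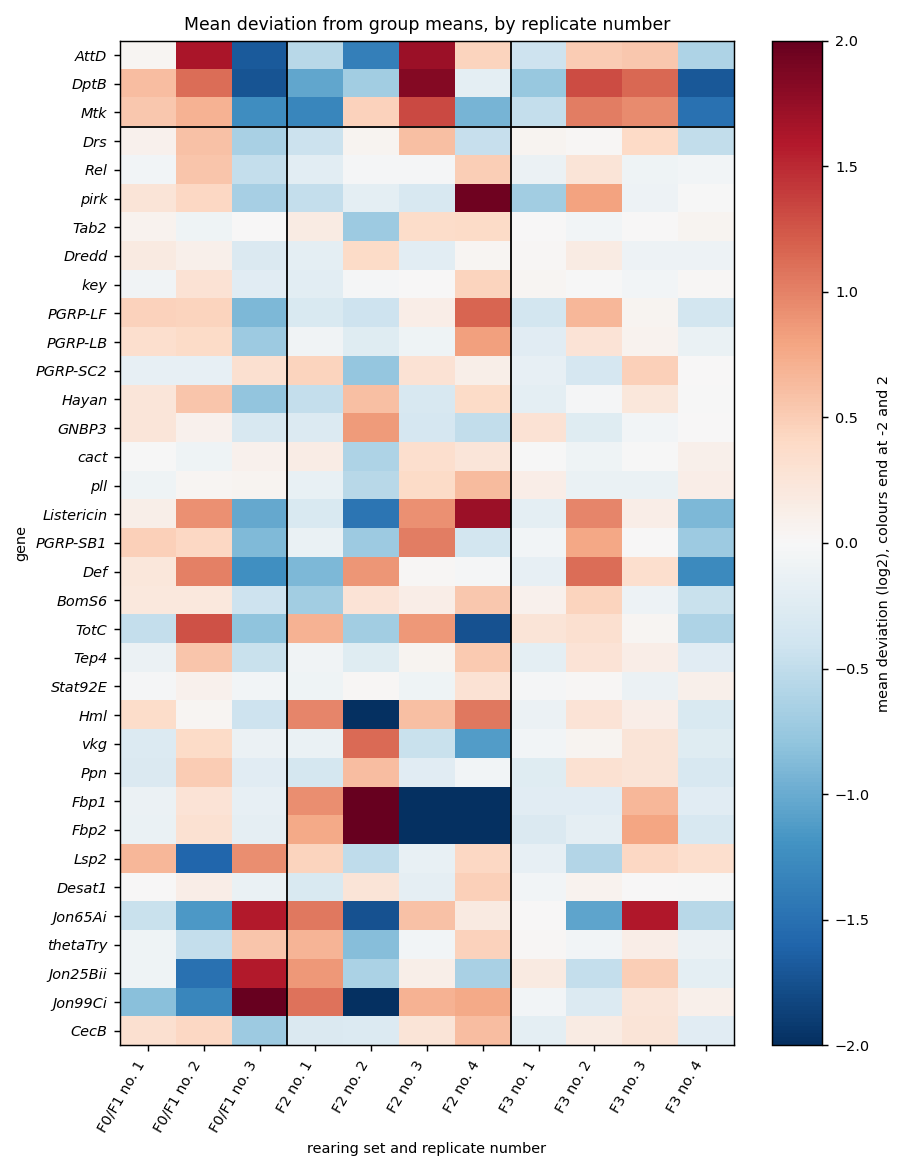
Mean deviation from the group means (log2, colours, which end at -2 and 2) of the members, at the top, and of the pathway and tissue genes named (rows) for each rearing set and replicate number (columns). In F0 and F1 the column of number 3 is low for AttD (-1.68) and Listericin (-1.03) and high for Jon65Ai (1.59).

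The 10 named genes whose deviations over the 66 arrays were most like the mean deviation of the 3 members were Cht4 (r = 0.8396), PGRP-SB1 (0.8361), CG4269 (0.8281), Drs (0.8273), CG4757 (0.8222), CG16713 (0.8213), BomBc3 (0.8177), Spn88Eb (0.8171), Arc1 (0.8129) and edin (0.8086). Cht4 encodes a chitinase, BomBc3 a Bomanin, Spn88Eb a serpin and edin an infection-inducible peptide. The median r over 13278 entries was -0.0363, and 14 exceeded 0.8. Cht4 held rank 4 among these entries, behind entries with no gene symbol of their own, the highest of them at r = 0.9554. The members' own r against the mean of the other members was 0.8291 for AttD, 0.9632 for DptB and 0.8692 for Mtk. These are likenesses over arrays that share groups, batches and numbers.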

How the data were processed

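The deposited values are log2 levels, 1 per probe set and array, on Affymetrix 3' IVT arrays; per the submitters' processing notes GCRMA was used, with no version given in the sources used here, and limma 3.46.0, whose role is not stated. GCRMA sets weak probe sets to a common lowest value, so changes near 2.2305 are understated. Precision is limited by how many arrays a group has, since arrays give no counting depth. The design text calls the replicates biological.

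Of 18952 probe sets, 183 controls were left out. Of the 18769 kept, 13647 had 1 symbol, 402 several genes and 4720 none. The RefSeq gene table held the Entrez identifiers of 13544, and 0 symbols were updated from it. The probe set of highest mean represents a gene, which gave 17104 entries. Entries above the 40th percentile of a sex (2.5057 in females, 2.6348 in males) on at least 3 arrays were tested: 12809, 11357 and, for both sexes, 13281.

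limma 3.58.1 (R 4.3.3) fitted all groups of a sex with the labelled batch (4 batches; 19 and 21 residual degrees of freedom). Calls are entries whose p, adjusted by Benjamini-Hochberg across every entry tested, was under 0.05. Replicate number within 3 rearing sets was tested by limma's moderated F test in all arrays (35 residual degrees of freedom), and the sexes in a like fit. Arrays of the same number were treated as paired where every correlation of their deviations exceeded 0.1. Of the F0 and F1 comparisons with a control, the pairs of founder males (r = -0.07 to 0.54) and rpr/+; dilp3/+ males (0 to 0.54) did not meet this. In the comparisons of founders and F1 siblings with the F1 control each batch held fewer than 2 arrays of one group or the other, so there is no value within a batch; within-batch values of the other comparisons were added after the data were seen. Fits were tested on simulated data. Figures used matplotlib 3.10.9 in Python 3.11.15.

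The members, lists and tests were chosen with earlier results of these data known. Besides the members, the text draws on Drs, Rel and pirk, on up to 4 called genes per list with the smallest p in the number test over all rearing sets, on the 10 genes most alike and on CecB. The probe sets of 7 members were not analysed here. Alternatives were no batch term, the replicate block, the compared groups only, a filter at the 60th percentile or none, quantile normalization, both sexes in 1 fit, the same rearing sets only, batches numbered separately, 1 sex only, and leaving out arrays. Combinations of these with the block, the sibling contrasts and the fits without the F2 arrays that stand apart were chosen after the data were seen.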

Additional observations from a re-analysis of the deposited data

Results flagged for a closer look

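Each value here is a log2 level at one end of its group whose gap to the nearest other array was large relative to the group's range, by Dixon's ratio. Over the named genes 258 groups of 4 arrays were tested and 21 values stood out; chance alone flags about 1 in 20 groups. Among the members, DptB on the male F2 control array numbered 3 was such a value (11.35). The same array held edin at 9.

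The other values lie in genes around the members. On female F3 test array 2, pirk was at 7.65 and PGRP-LB at 6.41, and on female F3 test array 3 edin was at 6.27. CecB was at 4.24 on male F2 test array 4 and at 3.43 on male F3 control array 2, and CG4757 was at 9.28 on male F3 control array 3. Tep4 was at 9.63 on male F2 test array 2. Hml was at 4.45 on male F2 test array 2 and at 3.79 on male F2 control array 2.

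Tissue markers gave the rest. Fbp1 was at 3.97 on female F3 test array 3, at 4.03 on female F3 control array 3 and at 2.24 on male F3 control array 3. Fbp2 was at 4.58 on female F3 test array 3, at 4.49 on female F3 control array 3 and at 2.4 on male F3 test array 4. All 8 F3 male arrays held Fbp1 at 2.23 to 2.24, at the lowest value of the scale, so the ratio there shows no distant value, and Fbp2 at 2.4 lies near it too. Jon99Ci was at 8.37 on male F2 test array 2, at 7.2 on male F2 control array 2, at 9.82 on female F3 control array 2 and at 11.46 on male F3 control array 2. Differences between the sexes in 387 comparisons of a named gene gave 0 calls.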

How the results depend on the processing

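Each count of members called (of 3) and each member's adjusted p was recomputed under the alternatives; 402 recomputed counts held and 22 moved. Adding the replicate block gave 2 members in founder females, 3 in cyo/+; ser/+ females, 3 in ser against dilp3 females and 1 in founder males (AttD, adjusted p = 0.0339), and changed no other count of members. Same-numbered founder males, rpr/+; dilp3/+ males and ser and dilp3 males did not all deviate together, so the block stands only here for them. With the same rearing sets only and the block, the count was 3 in founder females, 3 in cyo/+; ser/+ females and 3 in ser against dilp3 females. Both sexes in 1 fit with the block gave 1 in founder males and 1 in ser against dilp3 females. The compared groups only, with no batch term, gave 1 in founder males. Leaving out 1 array at a time gave 0 to 1 in founder females.

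For replicate number over all sets, male arrays alone gave 0, with or without the male F2 control array numbered 3. Within F0 and F1 male arrays alone gave 0, and 1 without that array; leaving out 1 number at a time gave 1 to 3. Within F2, batches numbered separately gave 1, male arrays alone 0, and leaving out that array 0, also with males alone; leaving out 1 number at a time gave 0 (number 3) to 3.

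The fitted sign of some uncalled members reversed; the cause was not tested. The adjusted p values then were as follows, for AttD, DptB and Mtk where 3 are given. In rpr/+; ser/+ females they were 0.853, 0.869 and 0.837 with no batch term, 0.0828, 0.117 and 0.081 with the block, 0.944 each with the compared groups only, 0.988, 0.983 and 0.937 with both sexes, 0.785, 0.781 and 0.588 with both sexes and the block, and 0.194, 0.18 and 0.131 with the same sets and the block. DptB and Mtk had 0.938 and 0.856 with the same sets and 0.904 and 0.783 with separate batches. In cyo/+; dilp3/+ females they were 1 each with no batch term and with the compared groups only, 0.337, 0.297 and 0.204 with the block, and 0.585, 0.455 and 0.371 with the same sets and the block. There DptB and Mtk had 0.998 and 0.934 with the same sets, 1 and 1 with both sexes, 0.996 and 0.883 with separate batches, and 0.999 each with both sexes and the block. In rpr/+; dilp3/+ males they were 1 each with no batch term and with the compared groups only, 0.948, 0.959 and 0.949 with the block, and 0.986, 0.991 and 0.987 with the same sets and the block; Mtk had 1 with the same sets and with separate batches, DptB and Mtk had 1 with both sexes and the block, and AttD had 1 without the array that stands apart. In rpr/+; dilp3/+ females AttD had 0.712 with the block and 1 with no batch term, the compared groups only, both sexes (with and without the block) and the same sets with the block.

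Leaving out 1 array at a time, the adjusted p ran from 0.895 to 1, 0.99 to 1 and 1 to 1 in rpr/+; dilp3/+ females, 0.419 to 0.931, 0.533 to 0.997 and 0.645 to 0.996 in rpr/+; ser/+ females, and 0.257 to 0.925, 0.492 to 0.97 and 0.614 to 0.976 in cyo/+; dilp3/+ females. It ran from 0.993 to 1, 0.993 to 1 and 0.991 to 1 in rpr/+; dilp3/+ males, and for DptB from 0.583 to 1 in rpr/+; ser/+ males. The lowest-mean probe set gave no other value, since each member has 1 probe set. AttD lies near the lowest value in F2 and F3, where a fall could not be measured, and with 3 or 4 arrays a group the intervals span more than 1 log2 unit on either side.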
